A study of Mus musculus with 10 samples.

Results

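The 7 genes described here, measured in single nuclei of the mouse hippocampus, write and erase trimethylation of lysine 27 on histone H3 (H3K27me3). They are the 2 alternative catalytic subunits of Polycomb repressive complex 2 (PRC2), Ezh1 and Ezh2, its core subunits Eed and Suz12, its accessory subunit Jarid2, and the H3K27 demethylases Kdm6a (UTX) and Kdm6b (JMJD3). The members were chosen by gene symbol, and each symbol was found in exactly 1 of the 24837 gene rows of the deposited matrix. Over the nuclei used they had between 2779 (Eed) and 16296 (Jarid2) unique molecular identifiers (UMIs, each counting 1 captured transcript molecule).

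The tissue came from wild-type C57B/6J mice of 4 to 7 months with no stimulation. The labels list 10 samples in 1 group, of which 4 are titled RNASET2 controls, and give no sex and no number of mice per sample. Nuclei from frozen hippocampus were stained with 7AAD, a dye that binds DNA, and sorted. The droplet chemistry (10x Genomics) captures RNA by its 3′ end. The matrix holds 15661 barcodes with suffixes 1 to 7, here called barcode sets. The labels do not say which set belongs to which sample, so all nuclei form 1 pooled sample, no test across animals was possible, and intervals cover counting error only.

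Of 15247 nuclei used, 9399 were neurons and 3410 were non-neuronal. Classes were named from marker genes, so each is a class of nuclei like the cell type it is named for. They held 3037 CA1 pyramidal, 970 CA2/CA3 pyramidal, 2406 dentate granule, 1043 subicular or cortical pyramidal, 628 other excitatory, 1315 inhibitory and 112 Cajal-Retzius nuclei, with 2499 oligodendrocytes, 347 oligodendrocyte precursors, 382 microglia and 182 astrocytes. The astrocyte class took in some vascular nuclei, and the Cajal-Retzius class was counted on neither side. The remaining 2326 nuclei stayed unnamed. Their 8 clusters raised markers or leading genes of another class, had general neuron markers that went against the class they scored highest for, or had under 3 markers. The largest, of 795 nuclei, came to 89.9% from set 1. In each of the 10 named types at least 7 of its markers stood 2-fold above all other nuclei. The lowest share was 9 of 16, in subicular or cortical pyramidal nuclei. The same markers had named the classes, so these counts are no independent check of the names. Set 6 held 1 non-neuronal nucleus, while set 7 held none of the nuclei counted as neurons. Median UMIs per nucleus ranged from 1087 to 8041 between sets, sets 5, 6 and 7 being the shallowest, and 21 barcode sequences appeared under more than 1 suffix. Excitatory marker RNA outside its own cells gives a measure of background: Slc17a7, the vesicular glutamate transporter, had 233 UMIs per 1000000 UMIs (CPM) in excitatory nuclei and 25.7 CPM in oligodendrocytes.

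PRC2 places H3K27me3 on chromatin of repressed genes. Suz12 and Eed form its scaffold with either Ezh1 or Ezh2. Eed reads the mark the complex has made, and Jarid2 helps to recruit the complex and to stimulate it. Ezh2 is best known from dividing progenitors and Ezh1 from cells that have stopped dividing, and in adult neurons PRC2 is known for keeping developmental genes silent. Kdm6a and Kdm6b remove the mark. Kdm6a also belongs to the COMPASS-like complexes that methylate lysine 4 of histone H3, and Kdm6b is known as a gene induced by stimuli. Kdm6a lies on the X chromosome and has a Y-linked paralog, Uty, with little demethylase activity.

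Ezh1 and Ezh2 encode similar enzymes from separate loci. The stretches before their RefSeq start sites are shown because the balance between these genes differed between neuronal classes. Both come from the RefSeq promoter table on GRCm38.p6, which had entries for 6 of the 7 members. They are printed 5′ to 3′ on the minus strand of the genome, with each CG pair in capitals.
Ezh1, chr11:101226464-101226713: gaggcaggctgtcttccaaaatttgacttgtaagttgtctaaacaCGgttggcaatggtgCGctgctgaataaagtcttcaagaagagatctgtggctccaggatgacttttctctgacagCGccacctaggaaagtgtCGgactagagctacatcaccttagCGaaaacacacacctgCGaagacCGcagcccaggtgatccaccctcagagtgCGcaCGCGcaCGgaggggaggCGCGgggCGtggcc
Ezh2, chr6:47595059-47595183: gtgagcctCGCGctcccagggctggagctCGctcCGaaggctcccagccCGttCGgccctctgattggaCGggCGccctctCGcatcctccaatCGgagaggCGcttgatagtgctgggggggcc
The Ezh1 run is the 250 bases before the RefSeq start and overlaps no GENCODE exon. The Ezh2 run is the part of its 250 bases that lies between annotated exons. It lies within the GENCODE Ezh2 gene, whose 5′ end at 47595341 is upstream of the RefSeq start. Over the full 250 bases the Ezh2 window had 23 CG pairs, more than 86.7% of 32851 promoters, and the Ezh1 window had 14, more than 70.6%, against a median of 6. Neither held TTTCCCGC or TTTGGCGC, forms of the E2F motif, on either strand. Of all promoter windows of that length 1.30% held one, among them that of Suz12.

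In the GENCODE M21 annotation of GRCm38, Ezh1 spans chr11:101191115-101226463 on the minus strand and Ezh2 spans chr6:47530139-47595341 on the minus strand. Eed lies at chr7:89954654-89980983 (minus), Suz12 at chr11:79993106-80034123 (plus), Jarid2 at chr13:44729474-44921643 (plus), Kdm6a at chrX:18162575-18279936 (plus) and Kdm6b at chr11:69398508-69413675 (minus). Introns made up 54.2% of the Kdm6b locus and between 79.0 and 94.9% of the other loci. Since nuclei hold unspliced RNA, levels of different genes are not compared here. Kdm6bos, an antisense gene, overlaps Kdm6b by 1188 bases and has no row of its own in the matrix.

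The catalytic subunits differed in how their levels varied between classes. Ezh1 stood at 53.1 CPM in neurons and 58.8 CPM in non-neuronal nuclei, and the interval of the ratio reached 1 (0.904, 95% interval 0.815 to 1.005). Its highest and lowest class means, 70.8 CPM in astrocytes and 35.9 CPM in microglia, were 1.97-fold apart, and each class overlapped the next in the order. Ezh2 stood at 26.2 CPM in neurons and 60.3 CPM in non-neuronal nuclei, a ratio of 0.435 (0.391 to 0.485). By set, Ezh2 in neurons was 26.4, 28.5, 24.3, 26.4, 23.3 and 25.7 CPM in sets 1 to 6. In non-neuronal nuclei it was 65.8, 69.5, 52.6, 55.3 and 97.1 CPM in sets 1 to 5 and 40.6 CPM in set 7. Every neuronal set value lay below every non-neuronal set value. Single classes did not all follow, since microglia (30.8 CPM, 18 UMIs) lay below dentate granule nuclei (38.7 CPM), with overlapping intervals. Ezh2 was highest in astrocytes (100.5 CPM) and lowest in CA2/CA3 pyramidal nuclei (12.6 CPM), a range of 7.99-fold, and CA2/CA3 lay below the next class without overlap of the intervals.

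**Figure D1:**
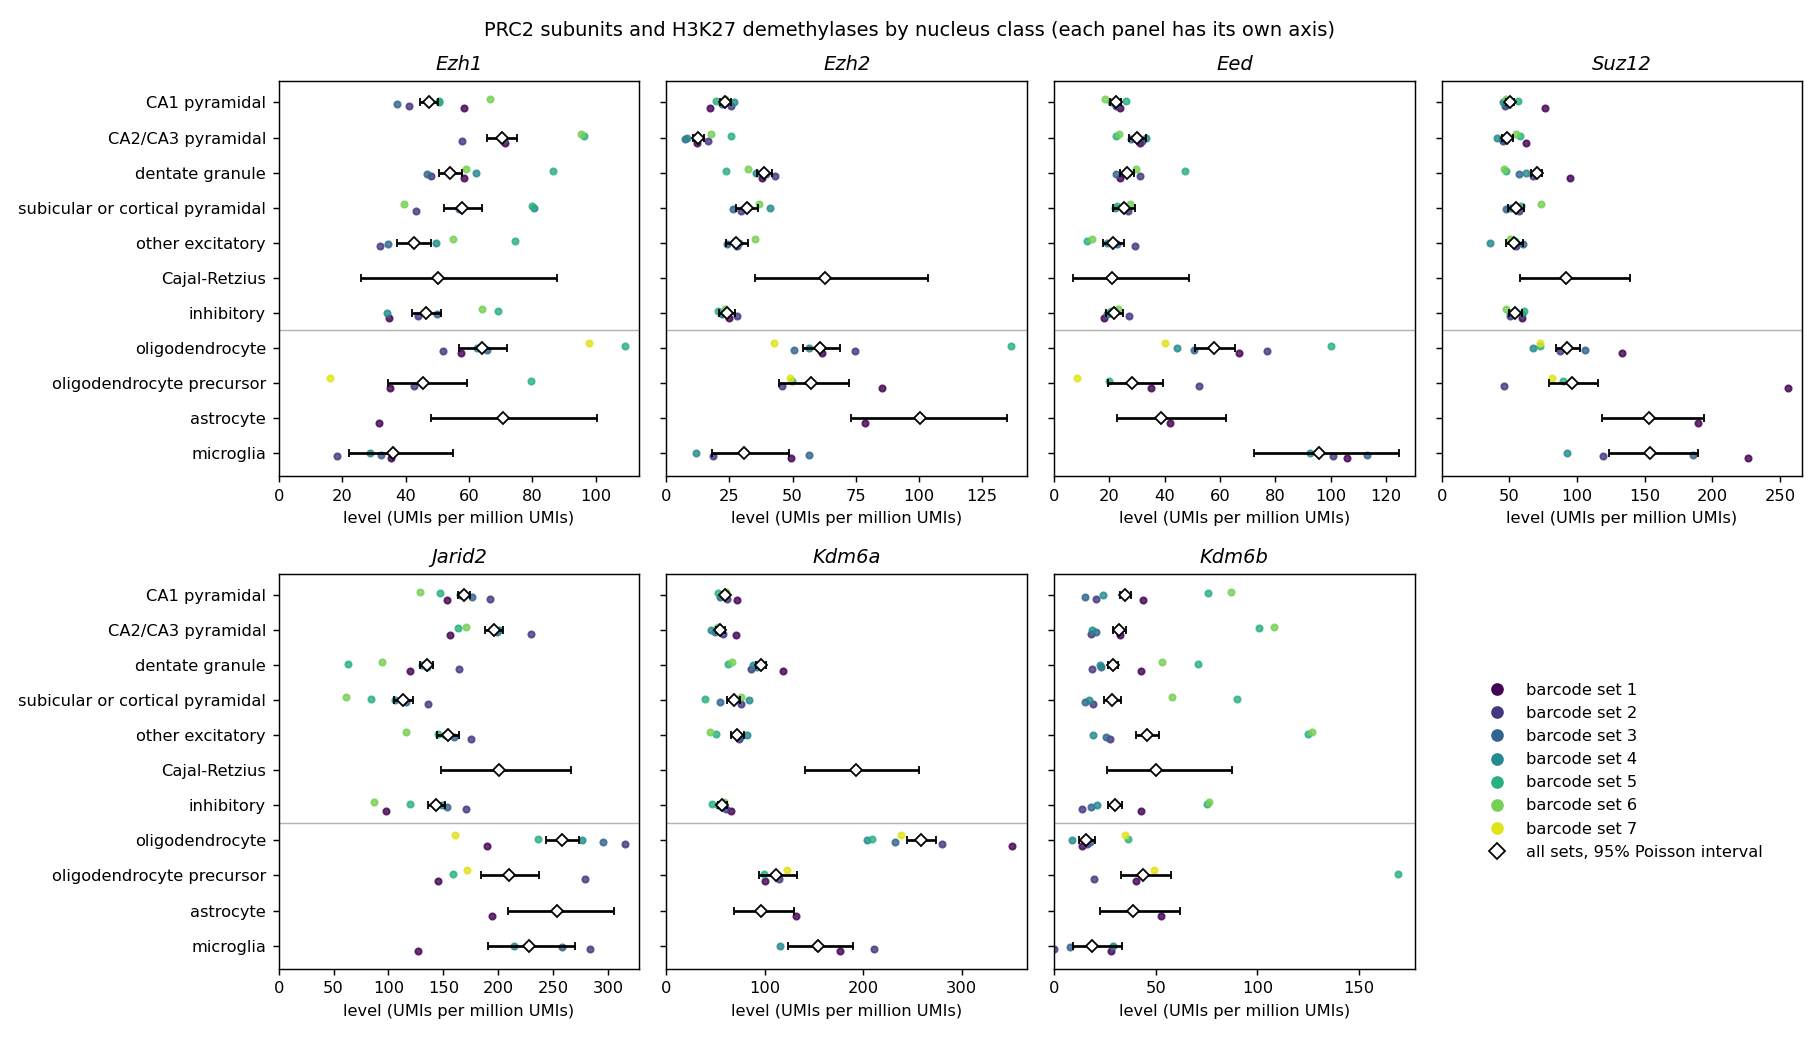
Level of each member (horizontal axis, UMIs per 1000000 UMIs, a separate axis per gene) in 11 nucleus classes, with neuronal classes above the grey line. Diamonds are all sets pooled with 95% Poisson intervals and circles are single barcode sets with at least 50 nuclei. The Cajal-Retzius class had no set of that size. Ezh2 was lowest in CA2/CA3 pyramidal nuclei and Kdm6a was highest in oligodendrocytes. In CA1, CA2/CA3 and inhibitory nuclei Kdm6b was higher in sets 5 and 6 than in sets 1 to 4.

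The scaffold subunits were lower in neurons too. Eed was 24.6 CPM in neurons and 54.6 CPM outside them (ratio 0.450, 0.402 to 0.505), and the ratio lay below 1 in 5 of 5 sets, from 0.382 to 0.563. Suz12 was 55.9 against 102.7 CPM (0.544, 0.502 to 0.590), with ratios of 0.487 to 0.680 over the 5 sets. Eed was highest in microglia, the resident immune cells, at 95.9 CPM. Oligodendrocytes stood at 57.9 CPM and gave 261 of the 368 Eed UMIs outside neurons. Single classes did not all follow for Eed. Oligodendrocyte precursors stood at 28.2 CPM (19.5 to 39.4, 34 UMIs), below CA2/CA3 pyramidal nuclei, with overlapping intervals. Astrocytes stood at 38.8 CPM (22.6 to 62.1, 17 UMIs). The intervals of precursors and astrocytes both took in the pooled neuronal level of 24.6 CPM. Suz12 stood at 154.1 CPM in microglia and at 153.0 CPM in astrocytes, with overlapping intervals. Suz12 in set 1 stood above the other sets, with 80.7 CPM in neurons where sets 2 to 6 had 48.9 to 57.0 CPM. Jarid2 was 156.3 CPM in neurons and 246.6 CPM outside (0.634, 0.602 to 0.668), below 1 in 5 of 5 sets. Its class means ran from 113.5 CPM in subicular or cortical nuclei to 258.2 CPM in oligodendrocytes.

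Of the demethylases, Kdm6a was lower in neurons in 5 of 5 sets, while Kdm6b had no direction that the sets shared. Kdm6a was 68.4 CPM in neurons and 212.9 CPM in non-neuronal nuclei, 3.11-fold lower in neurons (ratio 0.322, 0.303 to 0.341). In neurons it was 93.0, 68.2, 65.0, 66.0, 49.4 and 59.0 CPM in sets 1 to 6. Outside neurons it was 272.6, 227.7, 188.6, 179.8 and 150.1 CPM in sets 1 to 5 and 202.8 CPM in set 7. These ranges did not overlap, and within sets the ratio stayed between 0.299 and 0.367. Oligodendrocytes, the myelinating cells, held the highest level at 258.9 CPM. They gave 1167 of the 1434 Kdm6a UMIs outside neurons, so the non-neuronal value is mostly theirs. Microglia stood at 154.1 CPM, precursors at 111.8 CPM and astrocytes at 95.9 CPM, the last no higher than dentate granule nuclei (95.9 CPM). Uty, the Y-linked paralog, differed less, at 131.1 against 173.1 CPM (0.757, 0.713 to 0.806), and its interval did not overlap that of Kdm6a. How the authors' counting treated reads that fit both copies is not given in the sources used here, so both values are uncertain to that extent.

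Kdm6b was the member with the higher pooled level in neurons, 32.8 against 22.7 CPM (ratio 1.45, 1.23 to 1.71), but the sets did not share that direction. The ratio was 1.70, 1.19, 0.923, 1.55 and 0.888 in sets 1 to 5. Only in sets 1 and 4 did the interval exclude 1. Without sets 5 and 6 the pooled ratio on the log2 scale was 0.21 in place of 0.53. Among glia, Kdm6b was 43.9 CPM in oligodendrocyte precursors (32.9 to 57.4, 53 UMIs) and 38.8 CPM in astrocytes (22.6 to 62.1, 17 UMIs). Both intervals overlapped that of the pooled neurons (31.5 to 34.2). In precursors set 5 stood at 169.0 CPM from 17 UMIs, where the other sets had 19.7 to 49.0 CPM. Kdm6b was 18.8 CPM in microglia and 16.0 CPM in oligodendrocytes.

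Across these members 0 of 7 were at least 2-fold higher in neurons, where 18.1% of 13414 tested genes were, and 3 of 7 were at least 2-fold lower, where 22% of tested genes were. The median log2 ratio was -0.88 over the members and -0.24 over all tested genes. Neuronal nuclei held 3.87 times as many UMIs as non-neuronal ones on average (7649 and 1976). Counted per nucleus with no scaling to total UMIs, the direction turned for Ezh2, Eed, Suz12, Jarid2 and Kdm6a, with log2 ratios of 0.75, 0.80, 1.07, 1.30 and 0.32. The lower neuronal values therefore describe the members' share of nuclear RNA and not molecules per nucleus. Thinned to 1000 UMIs per nucleus, the ratios of Ezh2, Eed, Suz12, Jarid2 and Kdm6a were 0.522, 0.445, 0.527, 0.589 and 0.317, and that of Kdm6b was 2.31. At that depth 2 members were 2-fold lower, Ezh2 no longer among them, and 1, Kdm6b, was higher. Thinning also gives each nucleus the same weight. It keeps only nuclei with at least 1000 UMIs, which left out 734 of 3410 non-neuronal nuclei and 32 of 9399 neurons. Sets 5 and 6, which had the most Kdm6b in neurons, held 1677 and 2175 of the 9399 neurons. The parts of the change of weight and of the nuclei left out in the Kdm6b ratio were not tested.

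**Figure D2:**
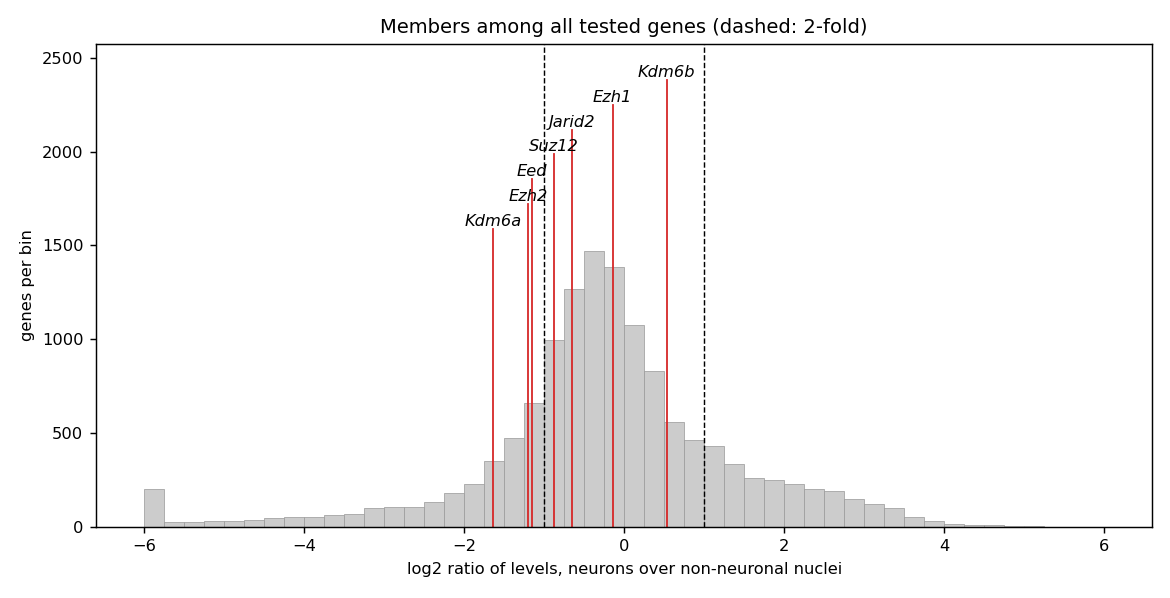
Distribution of the log2 ratio of levels in neurons over non-neuronal nuclei for 13414 genes (grey bars, 0.25 wide, 0.5 UMIs added to each side, values beyond 6 in the end bins), with the 7 members as red lines and dashed lines at 2-fold. Kdm6a, Ezh2 and Eed lie beyond the lower dashed line and none lies beyond the upper one.

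Excitatory and inhibitory neurons differed little in these genes. The ratio lay between 1.04 (Suz12) and 1.23 (Kdm6a) for all 7, so 0 of 7 passed 2-fold in either direction, where 9.59% of genes were higher and 8.3% lower in excitatory neurons. The interval excluded 1 for Kdm6a (70.1 against 56.9 CPM, 1.13 to 1.35), Ezh1 (54.1 against 46.5 CPM, 1.05 to 1.29) and Jarid2 (158.2 against 143.2 CPM, 1.04 to 1.17). For Ezh2 the interval of 0.962 to 1.28 allowed both directions. Kdm6a, Jarid2 and Ezh2 were above 1 in 6 of 6 sets. Ezh1 was above 1 in 4 of 6, with ratios of 1.71 and 1.78 in sets 1 and 4 and of 0.955 to 1.05 in the others. Without set 4 its log2 ratio was 0.08 in place of 0.22.

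Among excitatory neurons levels differed between hippocampal fields. Dentate granule nuclei, the input neurons of the hippocampal circuit, had more Ezh2 than CA1 pyramidal nuclei, the output neurons (38.7 against 23.3 CPM, ratio 1.66, 1.48 to 1.87). By set, Ezh2 in dentate granule nuclei was 37.9, 43.1, 39.3, 35.6, 23.6 and 32.5 CPM, and in CA1 it was 17.3, 25.5, 21.9, 26.9, 19.8 and 23.4 CPM. The granule value was the higher one in 6 of 6 sets, with 3 UMIs behind that of set 5. Kdm6a was also higher in granule nuclei in 6 of 6 sets (95.9 against 59.4 CPM, 1.61, 1.50 to 1.74). Jarid2 was lower in 6 of 6 sets (134.7 against 169.0 CPM, 0.797, 0.756 to 0.840). Suz12 was higher in the pool (70.3 against 50.7 CPM, 1.39, 1.28 to 1.51) and in 4 of 6 sets. Kdm6b was lower in the pool (0.823, 0.733 to 0.924), yet without sets 5 and 6 its log2 ratio was 0.26 in place of -0.28. None of the 7 reached 2-fold, where 6.28% of genes were higher and 8.55% lower. The summed level of 11 oligodendrocyte markers was 137.8 CPM in CA1, 198.0 CPM in CA2/CA3 and 393.8 CPM in granule nuclei, against 25944 CPM in oligodendrocytes. That of 12 astrocyte markers was 159.6, 441.0 and 1156 CPM in the same order, against 13244 CPM in astrocytes, and that of 13 inhibitory markers was 189.5, 178.6 and 2102 CPM, against 19846 CPM in inhibitory nuclei. None of these markers was at 0. The astrocyte list holds Slc4a4, itself a leading gene of granule clusters, so its granule sum includes a gene of the granule class. The part of these markers in these ratios was not tested.

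CA2/CA3 pyramidal nuclei had the lowest Ezh2 level of the classes. Both comparisons with this class were added after the class levels had been seen, so they are descriptions. Ezh1 was 71.3, 57.7, 70.9, 70.5, 96.2 and 95.3 CPM in sets 1 to 6 in CA2/CA3, and 58.5, 41.2, 37.3, 50.6, 50.6 and 66.6 CPM in CA1. Ezh1 was higher in CA2/CA3 in each set (pooled ratio 1.48, 1.35 to 1.63). Ezh2 in CA2/CA3 was 12.03, 16.6, 7.51, 8.15, 25.6 and 17.6 CPM, lower than in CA1 in 5 of 6 sets, set 5 being the exception. The pooled Ezh2 ratio was 0.539 (0.447 to 0.647) against CA1 and 0.325 (0.270 to 0.388) against granule nuclei, 3.08-fold lower. None of the members was past 2-fold against CA1, where 3.9% of genes were higher and 5.31% lower, though without set 2 or without set 5 Ezh2 was 2-fold lower. Against granule nuclei 0 of 7 were 2-fold higher and 1, Ezh2, was lower, where 7.86% and 8.48% of genes were. CA2/CA3 nuclei had the most UMIs (mean 12385, against 7285 in CA1 and 6786 in granule nuclei). Thinned to 1000 UMIs, the Ezh2 ratio was 0.873 (0.496 to 1.47) against CA1 and 0.551 (0.316 to 0.913) against granule nuclei, with 19 UMIs left in CA2/CA3. The difference from CA1 was thus not detectable at that depth, while Ezh1 still stood at 1.40 (1.06 to 1.84). Against granule nuclei, CA2/CA3 nuclei also had more Jarid2 (1.46, 1.37 to 1.54, higher in 6 of 6 sets) and less Kdm6a (0.573, 0.522 to 0.628, lower in 6 of 6 sets).

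**Figure D3:**
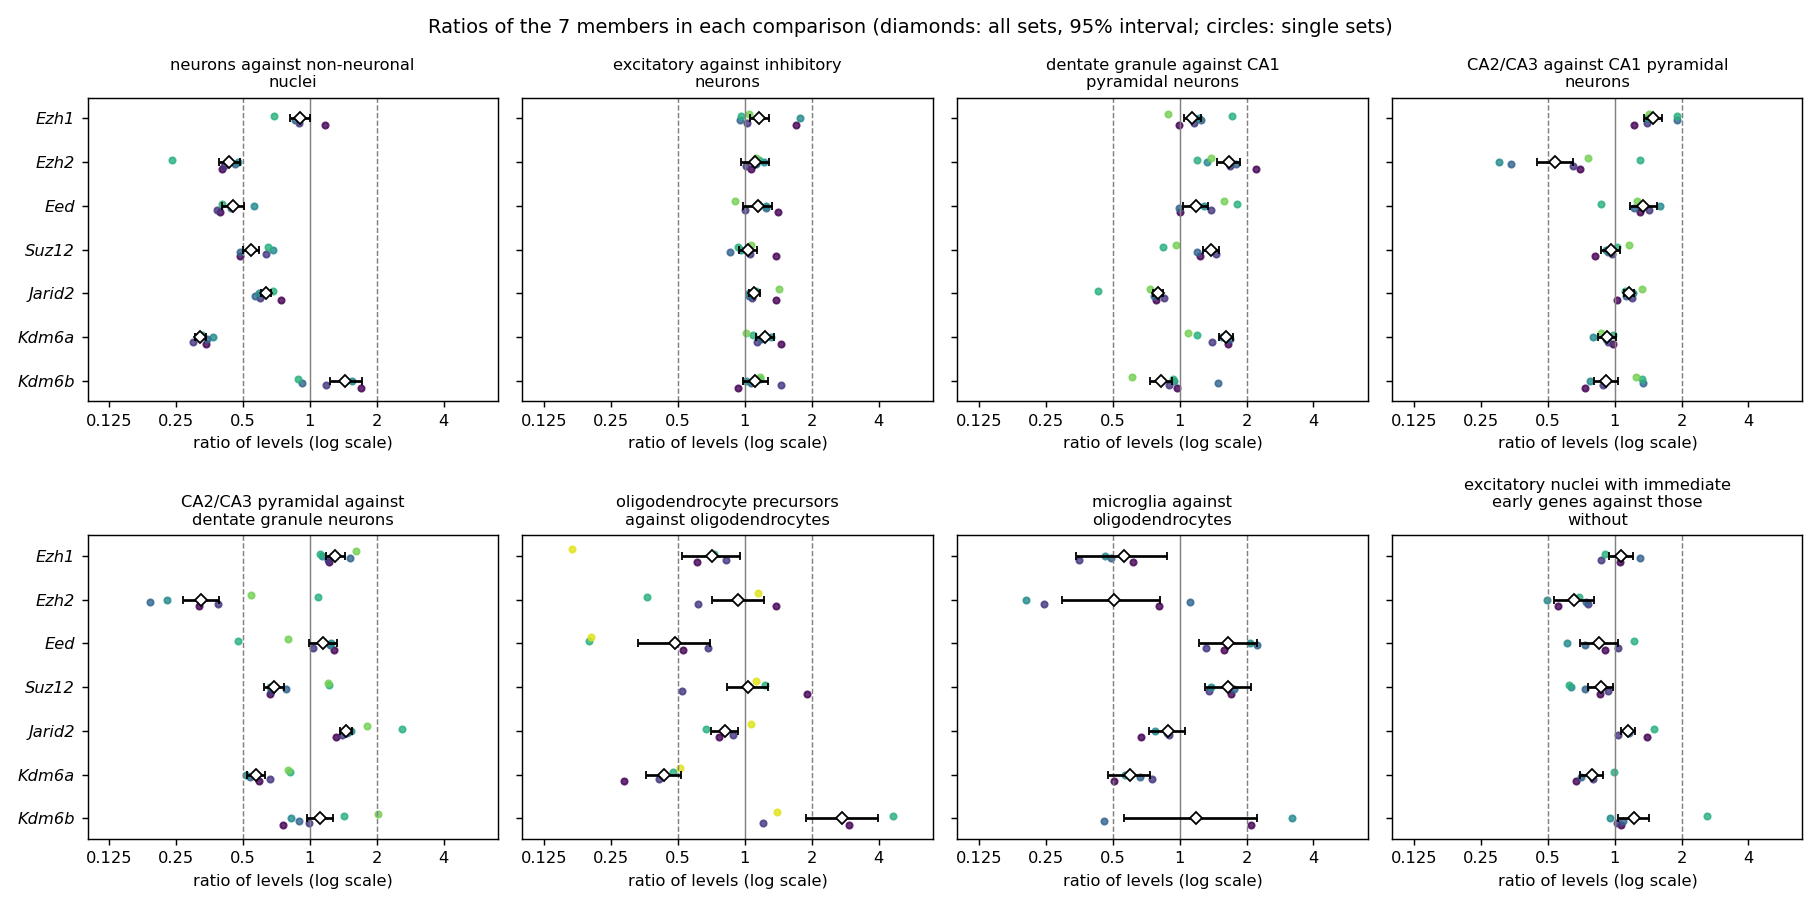
Ratio of levels for the 7 members (log scale) in the 8 comparisons, as diamonds with 95% intervals for all sets and circles for single sets with UMIs on both sides, coloured by set as in the plot of levels by class; dashed lines mark 2-fold. Ezh2 lies left of 1 in neurons against non-neuronal nuclei and in CA2/CA3 against dentate granule nuclei, and the excitatory and inhibitory values lie close to 1.

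Because Ezh1 and Ezh2 can take the same place in PRC2, the share of Ezh2 among their joint UMIs was computed per class. Shares of UMIs are set by transcript length and intron content as well as by expression, so they are read only between classes. Ezh2 made up 33.0% of the joint UMIs in neurons (31.8 to 34.3, Clopper-Pearson) and 50.6% in non-neuronal nuclei (47.1 to 54.1). By set the neuronal share ran from 25.8 to 38.7%. The non-neuronal share was 46.5 to 58.0% in sets 1 to 5. In set 7 it was 33.3% (22.4 to 45.7), within the neuronal range. Within neurons the Ezh2 share was 15.2% in CA2/CA3 (12.99 to 17.5), 33.0% in CA1 (30.7 to 35.4), 34.0% in inhibitory (30.3 to 37.8) and 41.7% in granule nuclei (39.2 to 44.3). By set the CA2/CA3 share was 14.4, 22.3, 9.57, 10.4, 21.1 and 15.6%, and the granule share was 39.4, 47.4, 45.7, 36.4, 21.4 and 35.5%. The granule share was above the CA2/CA3 share in each set, by the least in set 5, where the granule value rested on 3 Ezh2 UMIs. Oligodendrocytes stood at 48.8%, precursors at 55.6% and astrocytes at 58.7%.

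The highest share was in an unnamed cluster of 66 nuclei, with 83.1% (71.0 to 91.6). There Ezh2 was 155.3 CPM (114.9 to 205.3, 49 UMIs) and Ezh1 31.7 CPM (10 UMIs). The cluster was left without a name because it held markers of oligodendrocytes and of their precursors. Among its 10 leading genes were Bcas1, Enpp6 and Tcf7l2, which are known from oligodendrocytes that are newly formed. It was singled out after its values were seen.

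**Figure D4:**
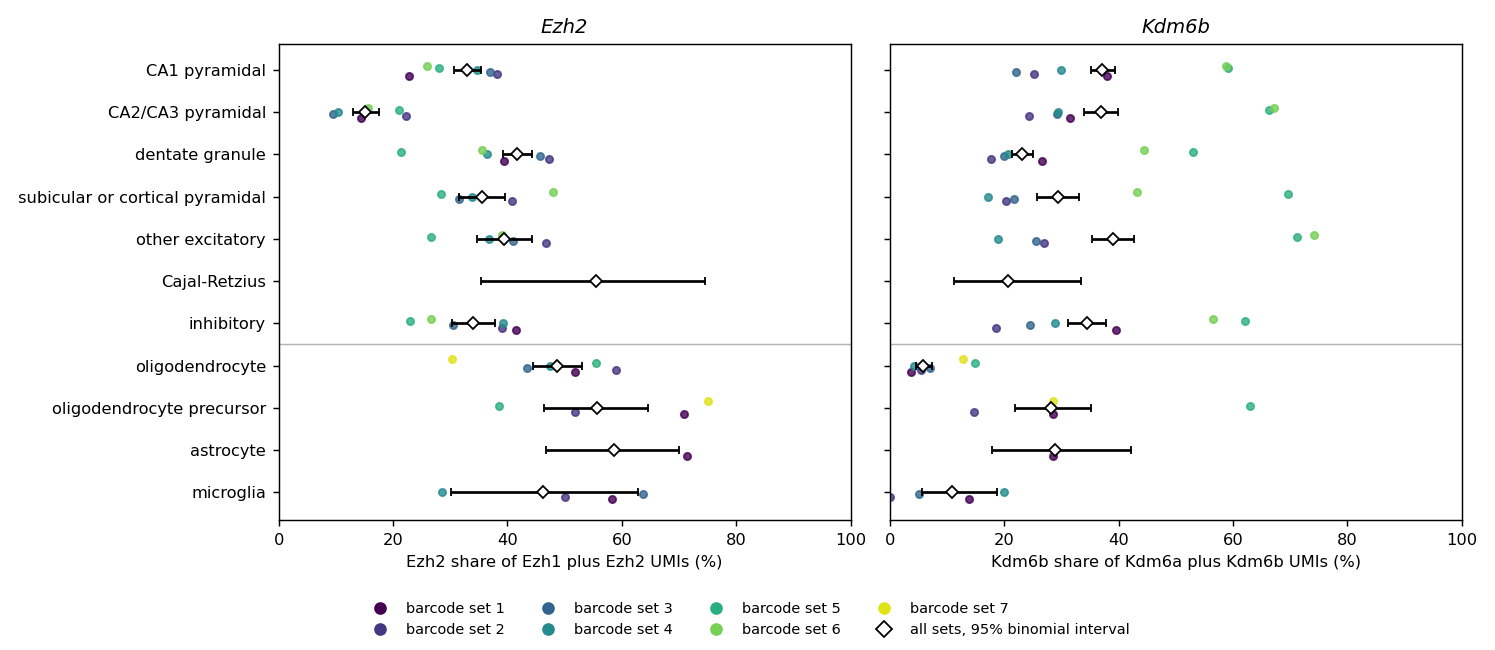
Share of Ezh2 among Ezh1 and Ezh2 UMIs (left) and of Kdm6b among Kdm6a and Kdm6b UMIs (right), in percent, by nucleus class, with 95% binomial intervals for all sets (diamonds) and single sets as circles. The Ezh2 share is lowest in CA2/CA3 pyramidal nuclei at 15.2%, and the Kdm6b share is lowest in oligodendrocytes at 5.81% and splits by set in neurons.

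Within the oligodendrocyte lineage the demethylases differed in opposite directions. Kdm6b was 2.75-fold higher in precursors than in oligodendrocytes (1.89 to 3.97), and above 1 in 4 of 4 sets, from 1.21 to 4.64. Of its 53 precursor UMIs 17 came from set 5, and sets 2 and 7 gave 6 each. With 1 set left out, its log2 ratio ranged from 1.07 to 1.71. Kdm6a was lower in precursors (111.8 against 258.9 CPM, 0.432, 0.359 to 0.517), below 1 in 4 of 4 sets. Eed was lower as well (28.2 against 57.9 CPM, 0.486, 0.330 to 0.697; 34 UMIs in precursors). In all, 1 of 7 members was 2-fold higher and 2 were 2-fold lower, where 15.2% and 16.9% of genes were. The lower count fell to 1 without set 4, 5 or 7. The Kdm6b share of the joint demethylase UMIs was 28.2% in precursors (21.9 to 35.2) and 5.81% in oligodendrocytes (4.57 to 7.26). By set the precursor share was 28.6, 14.6, 63.0 and 28.6% in sets 1, 2, 5 and 7. The oligodendrocyte share in the same sets was 3.72, 5.47, 14.8 and 12.8%.

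Microglia differed from oligodendrocytes in another way, based on few UMIs. Eed (95.9 against 57.9 CPM, ratio 1.66, 1.22 to 2.22) and Suz12 (154.1 against 93.0 CPM, 1.66, 1.30 to 2.09) were higher than in oligodendrocytes in 4 of 4 sets. Ezh1 (0.561, 0.342 to 0.873, 21 UMIs), Ezh2 (0.505, 0.295 to 0.813, 18 UMIs) and Kdm6a (0.595, 0.475 to 0.738) were lower. Ezh2 was lower in 3 of 4 sets, and Ezh1 and Kdm6a in 4 of 4. Kdm6b had too few UMIs to be tested, and 0 of the 6 tested members passed 2-fold, where 19.1% of genes were higher and 20.2% lower. Without set 1 or without set 3, 1 of them was 2-fold lower, and other alternatives moved Eed, Ezh1 or Ezh2 past that line as well.

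Kdm6b differed between barcode sets far more than the other members. In neurons it was 40.0, 19.4, 19.4, 21.4, 86.3 and 87.7 CPM in sets 1 to 6, a 4.52-fold range. Sets 5 and 6 were high, set 1 lay between, and sets 2 to 4 were low. Of the 7 members Kdm6b was the only one past 2-fold between its highest and lowest set, a size that 24.7% of 7626 genes with at least 1000 neuronal UMIs reached, and 2.27% of these genes had a range as wide. The ranges of the other members ran from 1.22-fold (Ezh2) to 1.88-fold (Kdm6a). The split held within classes. Kdm6b in CA1 was 43.9, 20.7, 15.4, 24.2, 75.7 and 86.9 CPM in sets 1 to 6. In CA2/CA3 it was 32.4, 18.4, 20.6, 18.7, 101.0 and 108.2 CPM, and in inhibitory nuclei 42.8, 13.9, 18.3, 21.1, 75.1 and 76.2 CPM. In dentate granule nuclei it was 42.9, 18.5, 23.0, 22.8, 70.8 and 53.1 CPM, with 9 UMIs behind set 5 and overlapping intervals for sets 1 and 6. In each of these classes sets 5 and 6 were the highest. The Kdm6b share of joint demethylase UMIs in neurons was 30.1, 22.1, 23.0, 24.5, 63.6 and 59.8% over the sets.

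Depth moved with this split, and so did immediate early genes in part. Neurons of sets 5 and 6 had median UMIs of 2915 and 2361, against 7572 to 10963 in sets 1 to 4, and its part in the Kdm6b levels was not tested. The 16 immediate early genes summed to 515.8, 142.4, 165.0, 159.9, 425.9 and 186.4 CPM in CA1 of sets 1 to 6, and to 236.4, 121.9, 129.7, 126.1, 368.6 and 164.2 CPM in all neurons. Sets 1, 5 and 6, the 3 with the most Kdm6b, were also the 3 highest here in both. Their order differed, set 6 being the lowest of the 3 for these genes. Their part in the Kdm6b levels was not tested either.

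**Figure D5:**
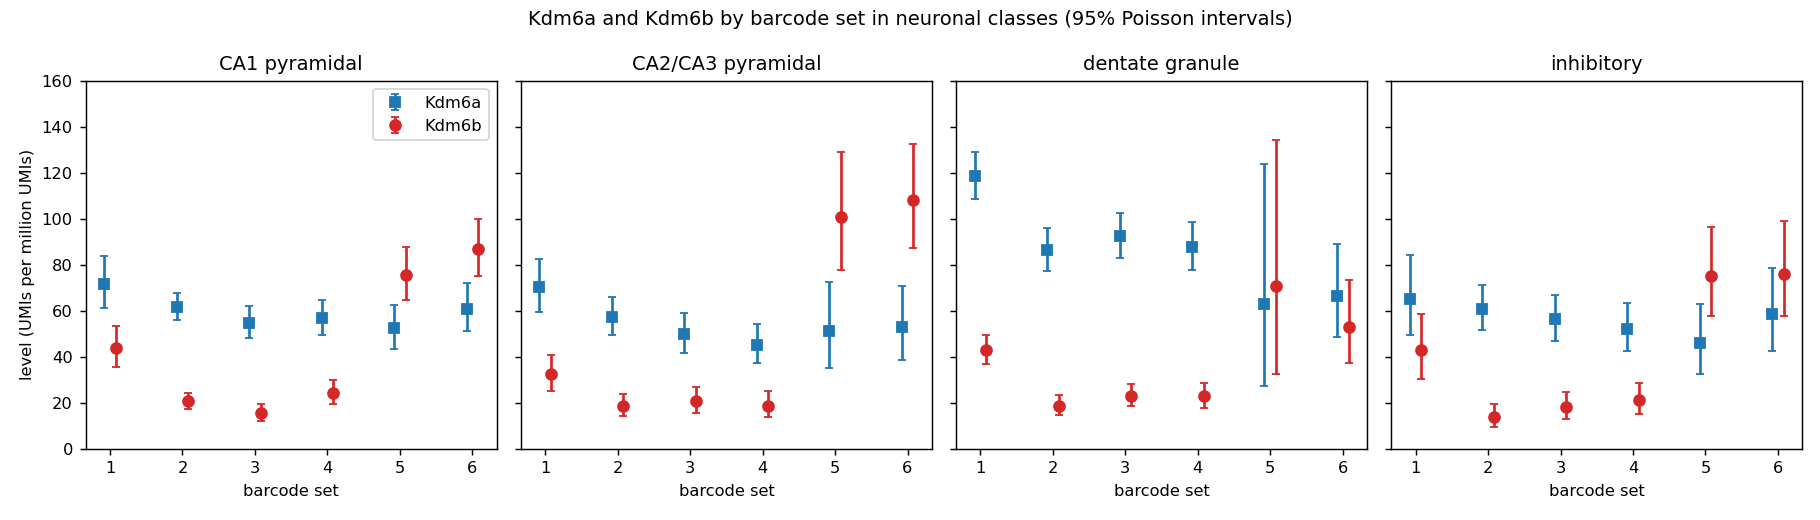
Level of Kdm6a (blue squares) and Kdm6b (red circles), in UMIs per 1000000 UMIs with 95% Poisson intervals, by barcode set in 4 neuronal classes. In CA1, CA2/CA3 and inhibitory nuclei Kdm6b lies between 13.9 and 43.9 in sets 1 to 4 and between 75.1 and 108.2 in sets 5 and 6, with no such rise of Kdm6a. In dentate granule nuclei the Kdm6b interval of set 6 overlaps that of set 1, and Kdm6a is lower in sets 5 and 6 (63.0 and 66.4) than in sets 1 to 4 (86.4 to 118.7).

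Excitatory nuclei were compared by their immediate early gene RNA, and neuronal activity itself was not measured. The groups were 353 nuclei that had at least 4 of the 16 genes and 4270 that had at most 1, both with at least 3000 UMIs. Ezh2 was lower in the former (19.6 against 29.8 CPM, ratio 0.657, 0.532 to 0.804) in 5 of 5 sets, and Kdm6a was lower in 5 of 5 (0.789, 0.701 to 0.887). Jarid2 was higher in 5 of 5 sets (1.15, 1.07 to 1.23). Kdm6b was higher in the pool (36.2 against 29.7 CPM, 1.22, 1.04 to 1.42) and in 4 of 5 sets. None of the 7 reached 2-fold, where 1.35% of genes were higher and 3.69% lower. Nuclei with these genes were deeper (mean 15023 against 8364 UMIs), and neither that nor the mix of excitatory classes was matched. Thinned to 1000 UMIs, 8 Ezh2 UMIs were left and the interval of 0.332 to 1.60 took in 1.

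Partner genes were taken from lists of the Polycomb system. Of 10 further PRC2 subunits 7 could be tested between neurons and non-neuronal nuclei, and 0 were 2-fold higher and 2 lower, where 18.1% and 22% of all tested genes were. Their median log2 ratio was -0.33, and that of all tested genes -0.24. The lowest were Aebp2 (0.375) and Lcorl (0.492), and the highest were Phf1 (1.72) and Mtf2 (1.49). Phf1, a Polycomb-like subunit, was lower in excitatory than in inhibitory neurons (0.396) and in granule than in CA1 nuclei (0.216, 57 against 358 UMIs).

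Polycomb repressive complex 1 (PRC1) binds H3K27me3 and places ubiquitin on histone H2A. Of 27 PRC1 genes 25 were tested, 4 were 2-fold higher in neurons and 3 lower, with a median log2 ratio of -0.07. The 4 higher genes make up 16% of those tested and the 3 lower ones 12%, against 18.1% and 22% over all tested genes. Scml4 (9.88, 11 UMIs outside neurons) and Pcgf2 (2.98) were the highest, and Rybp (0.377) was among the 3 lower genes. The lowest of those had a log2 ratio of -1.62. Pcgf5, which defines a variant PRC1, was low in CA2/CA3: 16.9 CPM against 72.4 CPM in CA1 (0.233, 0.201 to 0.270), lower in 6 of 6 sets. It was 10.9-fold higher in precursors than in oligodendrocytes (128.4 against 11.8 CPM). Bcor, a partner of variant PRC1, was 9.38-fold higher in microglia than in oligodendrocytes (135.2 against 14.4 CPM), with Rnf2, the catalytic subunit, 4.33-fold higher. Of 16 PRC1 genes tested between microglia and oligodendrocytes 5 were 2-fold higher and 4 lower, where 19.1% and 20.2% of genes were. Of 17 tested between precursors and oligodendrocytes 2 were 2-fold higher and 4 lower, where 15.2% and 16.9% of genes were.

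The PR-DUB complex removes that ubiquitin. All 10 of its genes were tested, 0 passed 2-fold, where 18.1% of all tested genes were higher and 22% lower. The median was -0.15, against -0.24 over all tested genes. Asxl2 (0.582) and Asxl3 (0.644) were the lowest and Bap1 (1.61) and Mbd5 (1.39) the highest. Among Uty and 3 demethylases of the Kdm7 family none passed 2-fold, against the same shares of all genes, with Phf2 at 0.573 and Uty at 0.757 the lowest and Kdm7a at 1.96 and Phf8 at 0.862 the highest. Kdm7a was 5.37-fold higher in microglia than in oligodendrocytes.

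A list of 40 developmental genes known as PRC2 targets had low counts. Of these, 11 (27.5%) had no UMI over all nuclei, where 22.7% of all genes had none. A further 23 had 1 to 99 UMIs, and 6 (15%) had at least 100, where 56.0% of all genes did. They had a median of 2.5 UMIs, where the median of all genes was 235. Among the 12 Hox genes 9 were at 0, which allows a level of up to 0.0306 CPM, and the highest had 7 UMIs. Between neurons and non-neuronal nuclei 3 could be tested. Olig2, which specifies the oligodendrocyte lineage, was 0.348 against 38.4 CPM (0.00904, 0.00575 to 0.0137). Tbx15 was 2.71 against 5.05 CPM and Gata4 was 6.19 against 4.90 CPM, the latter with an interval that took in 1. The presence of H3K27me3 was not measured.

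The genes whose class pattern was most like each member's were ranked by Pearson's r of log2(CPM + 1) over 11 classes, among 10064 genes. This is a description over classes that share libraries and differ in depth. The first in rank was Trp53inp1 for Ezh2 (r = 0.930), followed by Dpf2 and Exoc7. It was Dgcr6 for Ezh1 (0.858), Gxylt1 for Eed (0.975), Hspa5 for Suz12 (0.983), Scrn3 for Jarid2 (0.921), Fto for Kdm6a (0.959) and Scp2 for Kdm6b (0.949). Between the members, Ezh2 and Suz12 had r = 0.734 and Suz12 and Jarid2 0.718. Ezh1 and Ezh2 had r = 0.178, and Eed and Kdm6b had r = -0.754.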

How the data were processed

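Single-nucleus libraries of 10 hippocampus samples were deposited as 1 matrix. The deposited values are unscaled whole-number UMI counts, which the authors made with Cell Ranger 4.0.0 on mm10 (GRCm38), per the submitters' processing notes. Whether intronic reads were counted, and with which annotation, is not given in the sources used here. Members and lists were chosen with earlier results of these data known.

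Of 15661 barcodes, 108 failed a minimum of 500 UMIs and 300 genes or held 5% or more mitochondrial UMIs. Scrublet in scanpy 1.11.5, run per set, called 306 doublets (1.97%), which were removed. In sets 2, 5 and 7 under 0.5% were called, too few for the calls to be relied on in those sets. Leiden clustering (leidenalg 0.10.2, resolution 1, 30 principal components, 2078 features) left out the members and lists and gave 30 clusters, with no integration of sets. Clusters were named from markers by a rule built while looking at them.

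Levels are summed UMIs per 1000000 UMIs (CPM), with exact 95% Poisson intervals. Ratios have exact conditional intervals and shares Clopper-Pearson intervals. They cover counting error only. With 1 pooled sample no p-value was computed, nuclei not being replicates. A gene with 100 or more UMIs in the compared nuclei counted as tested for 2-fold, and a set entered with at least 50 nuclei on each side. Interval coverage was checked on simulated Poisson counts. These vary by counting error alone, so the check does not cover variation between sets. In each list the 2 highest and 2 lowest ratios between neurons and non-neuronal nuclei are named, except that the lowest PRC1 gene is not. Of the list genes past 2-fold in other comparisons only some are named. Comparisons with CA2/CA3, the range over sets and the values without sets 5 and 6 were added after seeing the data. Gene positions come from GENCODE M21, which held 24797 of the 24837 gene identifiers.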

Additional observations from a re-analysis of the deposited data

Results flagged for a closer look

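Within 77 combinations of a member with a nucleus class or side covered by 4 to 6 barcode sets, 7 had 1 set far from the others by Dixon's criterion, and chance gives about 1 in 20. Suz12 in set 1 was the highest in neurons (80.7 CPM, 817 UMIs, the other sets from 48.9 to 57.0), in CA1 pyramidal nuclei (76.7 CPM) and in non-neuronal nuclei (165.8 CPM, the others from 71.9 to 106.8). The neuronal value and that of CA1 share nuclei. Kdm6b in non-neuronal nuclei was highest in set 5, at 97.1 CPM from 22 UMIs, and so was Ezh2 in oligodendrocytes, at 136.4 CPM from 15 UMIs. Eed in dentate granule nuclei of set 5 was 47.2 CPM from 6 UMIs. Ezh2 in oligodendrocyte precursors of set 1 was 85.2 CPM from 17 UMIs, where the other 3 sets had 45.9 to 49.7 CPM.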

How the results depend on the processing

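No paired analysis was possible because the labels give 1 group and tie no barcode set to a sample. Ratios of classes within the same set stand beside the pooled ones in the report. The cause of the changes below was not tested beyond each alternative's construction.

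Counted per nucleus with no scaling, log2 ratios of neurons over non-neuronal nuclei turned for Ezh2 (0.7523), Eed (0.8024), Suz12 (1.0742), Jarid2 (1.2955) and Kdm6a (0.3162). They turned for Ezh1 (0.4548) and Jarid2 (0.6465) in precursors over oligodendrocytes. With immediate early genes they turned for Ezh2 (0.2389), Suz12 (0.6398) and Kdm6a (0.5040), and in CA2/CA3 over granule nuclei for Suz12 (0.3355) and Kdm6a (0.0640). The numbers of members 2-fold higher and lower then became 4 and 0 in neurons and 4 and 0 in CA2/CA3 over granule nuclei. The number higher became 2 with immediate early genes and 2 in CA2/CA3 over CA1, and the number lower became 0 in precursors and 2 in microglia.

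Thinned to 1000 UMIs, Ezh1 (-0.0552) and Eed (-0.0297) turned in granule over CA1 nuclei. The number 2-fold higher became 1 in neurons and 1 in microglia, and the number lower became 2 in neurons, 1 in microglia and 0 in CA2/CA3 over granule nuclei. The number lower became 1 in precursors and 1 in microglia with at least 1000 UMIs, 1 in microglia at Leiden resolution 2 and with unnamed clusters in their best class, and 2 in microglia as the median of sets. Without sets 5 and 6, Kdm6b turned in granule over CA1 nuclei (0.2561), and the number lower became 1 in precursors and 1 in CA2/CA3 over CA1.

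The neuronal Ezh2 share was 34.4% with unnamed clusters, 31.5% as the median of sets, 34.3% without sets 5 and 6, and 31.0 to 33.7% with 1 set left out. The neuronal Kdm6b share was 31.0%, 27.3%, 24.7% and 29.0 to 35.7% under these, and 39.8% when thinned. With 1 set left out, the number lower ranged from 1 to 2 in precursors, 0 to 1 in microglia and 0 to 1 in CA2/CA3 over CA1. Keeping doublets moved none of 84 values.

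Depth limits microglia, astrocytes and thinned values, most of which rest on under 100 UMIs.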
